A study of Mus musculus with 18 samples.

Results

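The 34 genes described here encode proteins of the lysosome: 11 proteases, 9 glycosidases and sulfatases, 4 proteins of lipid catabolism, 4 membrane proteins, the transcription factor Tfeb and 5 parts of the proton pump. They were chosen as a list of gene symbols, and each was read from the brightest probe assigned to it. All 34 were among the 22855 features tested. Their messenger RNA was read in cultured explants of dorsal root ganglia, the clusters of sensory neurons beside the spinal cord. The ganglia came from C57BL/6J mouse embryos at E13.5, with no genetic change named in the labels. In such explants sensory neurons grow beside Schwann cells and further ganglion cells, and the Schwann cells wrap axons in myelin once a myelination medium is supplied. All cultures had first been kept on matrigel in a growth medium. The 3 groups were day 0, which the labels call control and which was taken before the change of medium, day 10 of the myelination medium, when myelination was early, and day 22, when myelin sheaths were abundant. Each day had 3 batches with a pair of arrays each, which makes 6 arrays per day and 18 in total. The study's design text describes the batches as separate pools of embryos, although the sample titles number them as mice. No cultures kept without the myelination medium were analysed here, so effects of culture age and of the medium cannot be told apart.

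Lysosomes are acidic compartments in which proteins, glycans, lipids and whole organelles are broken down. A proton pump, the vacuolar ATPase, acidifies them by spending ATP, soluble hydrolases do the digestion, and heavily glycosylated membrane proteins line the inner face and carry products out. Transcription of many of these genes is raised by Tfeb and its relatives of the MiT/TFE family, which bind a short palindrome called the CLEAR element. In peripheral nerve the lysosome takes part in the turnover of myelin lipids, and loss of single lysosomal enzymes gives storage diseases that damage myelin, neurons or both. Macrophages, which engulf debris, are rich in lysosomes and their hydrolases.

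The array files and the deposited value table disagree on which batch 12 of the 18 arrays belong to, although never on the day. Values below therefore use the batches under which the array files were deposited (array-file batches, as opposed to value-table batches), and rose and fell are used only of genes for which limma gave a Benjamini-Hochberg adjusted p under 0.05 over all features with both assignments. Deviations from the day means of the pair of arrays that share a batch correlated at a median of -0.33 with the assignment of the array files and of 0.18 with that of the value table, over 9 pairs each. Pairs of arrays from different batches of a day gave medians of -0.22 and -0.33 in the same order, over 36 pairs each. The number of arrays limits the precision. Between 54.8 and 61.5% of spots on an array were well above background. All 7 Schwann cell markers and all 10 neuron markers fixed for this work were well above background on every array. A level is the log2 intensity of a probe minus that of the array's 75th percentile, so a level of 0 is the brightness of that percentile, and levels of different genes cannot be compared. Differences are log2, later day minus earlier day, ± standard error, from limma fitted to 9 batch means (n = 3 batches per day). These standard errors use the array-file batches, and may be too small if the batches of the value table are the right ones. The median standard deviation of batch means was 0.126 with the array-file batches and 0.15 with the value-table batches. Which assignment is right was not tested. Where a pair of adjusted p-values is given, the first comes from the batches of the array files and the other from those of the value table.

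By day 22 of the myelination medium, 20 of the 34 lysosomal genes had risen against day 0 and 0 had fallen (limma), against 12.6% of all features that rose and 18.6% that fell. With the array-file batches alone 24 were higher and 0 lower, against 17.1 and 27.3% of all features. The genes that rose with both assignments were 8 of 11 proteases, 6 of 9 glycosidases and sulfatases, 2 of 4 lipid genes, 1 of 4 membrane proteins and 3 of 5 pump genes. The filter kept probes well above background on all 6 arrays of some day. Atp6v0d2, among these pump genes, passed it only through days 10 and 22, where it was high, so its direction is no support. The median difference over the 34 was 0.59, where that over all features was -0.08, and single genes ranged from -0.22 for Atp6v0d1 to 2.18 for Ctsh, with Atp6v0d2 beyond it, which was well above background on 1 of 6 arrays of day 0 and for which only a lower bound, of 24.5-fold, is given against that day. Of the 34, 30 had a positive difference. In 18 of the 34, which is 52.9%, all 6 arrays of day 22 lay above all 6 of day 0, against 9.58% of all features. In bulk RNA of this kind, more cells of a type with many lysosomes and more lysosomal RNA per cell cannot be told apart.

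At day 10, 7 of the 34 had risen against day 0 and 0 had fallen, against 5.75 and 7.72% of all features. These were the proteases Ctsz, Ctsd, Ctsb and Ctsl, the glycosidase Neu1, the sulfatase Arsa and the pump subunit Atp6v0d2, and all 7 had risen at day 22 as well. Atp6v0d2 is counted here although it passed the filter only through days 10 and 22. Another 8 passed the threshold only with the array-file batches, which gave 15 in all, or 44.1%, against 11.4% of all features higher. The value-table batches alone gave 7 higher and 0 lower, against 5.89 and 7.94% of all features. Once batch 1 of day 22, which enters only the error of this comparison, was left out, they gave 14 and 0, against 8.05 and 9.48%. The median difference over the 34 was 0.31, against -0.06 over all features, and 29 were positive. The arrays of day 10 lay wholly above those of day 0 in 14 of the 34, or 41.2%, against 7.92% of all features, and wholly below in 0, against 9.18%. The comparisons of day 10 and of day 22 with day 0 share the day 0 arrays.

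Between day 22 and day 10, 0 of the 34 passed with both assignments, against 0.49% of all features higher and 1.45% lower. With the array-file batches 6 were higher at day 22, namely Atp6v0d2, Ctsd, Ctsb, Ctsl, Psap and Lamp2, which is 17.6%, against 4.2% of all features. Their number was 3 without day 10 batch 1, day 10 batch 3 or day 22 batch 2, and 13 without day 22 batch 3. In 4 of the 34, or 11.8%, the arrays did not overlap, against 3.15% of all features, with 0 on the lower side, against 5.49%. The median difference over the 34 was 0.23, against -0.02 over all features, and 29 were positive.

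**Figure D1:**
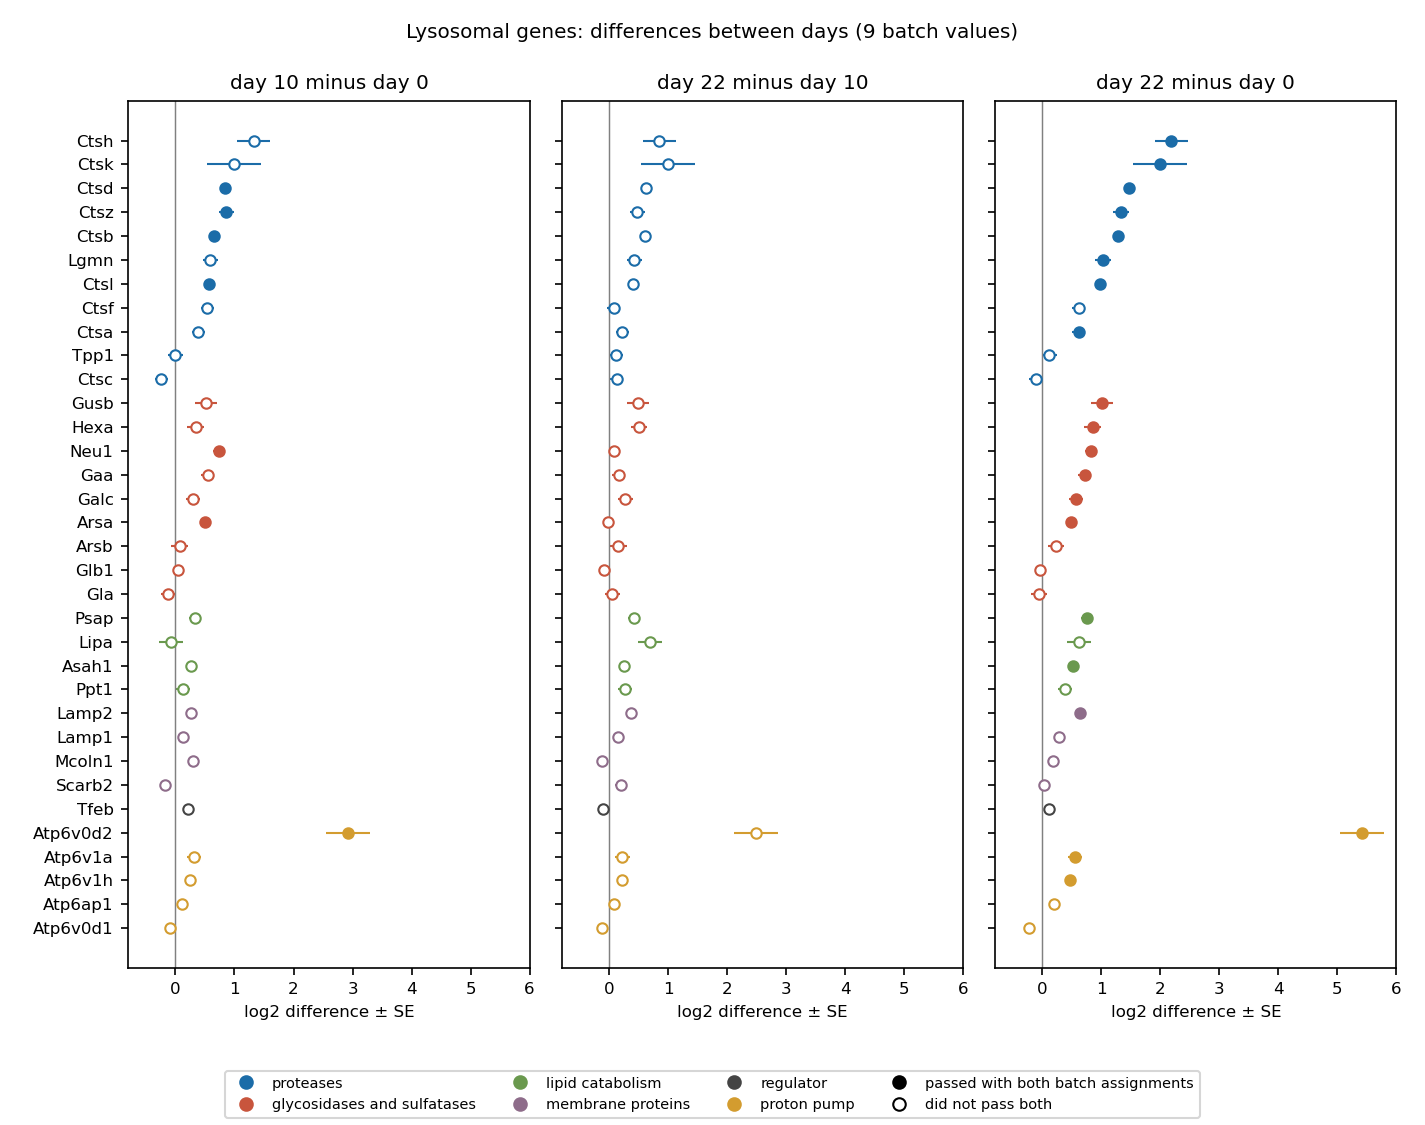
Differences between days for the 34 genes, on a log2 scale (x axis), with the standard error of the fit to 9 batch means as horizontal bars. Genes are ordered by role and then by the difference between day 22 and day 0, and filled points passed the threshold with both batch assignments: 7, 0 and 20 genes in the panels from left to right. Atp6v0d2, whose day 0 signal was mostly not well above background, stands far to the right in each panel, and the other points of the right panel lie between -0.22 and 2.18.

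**Figure D2:**
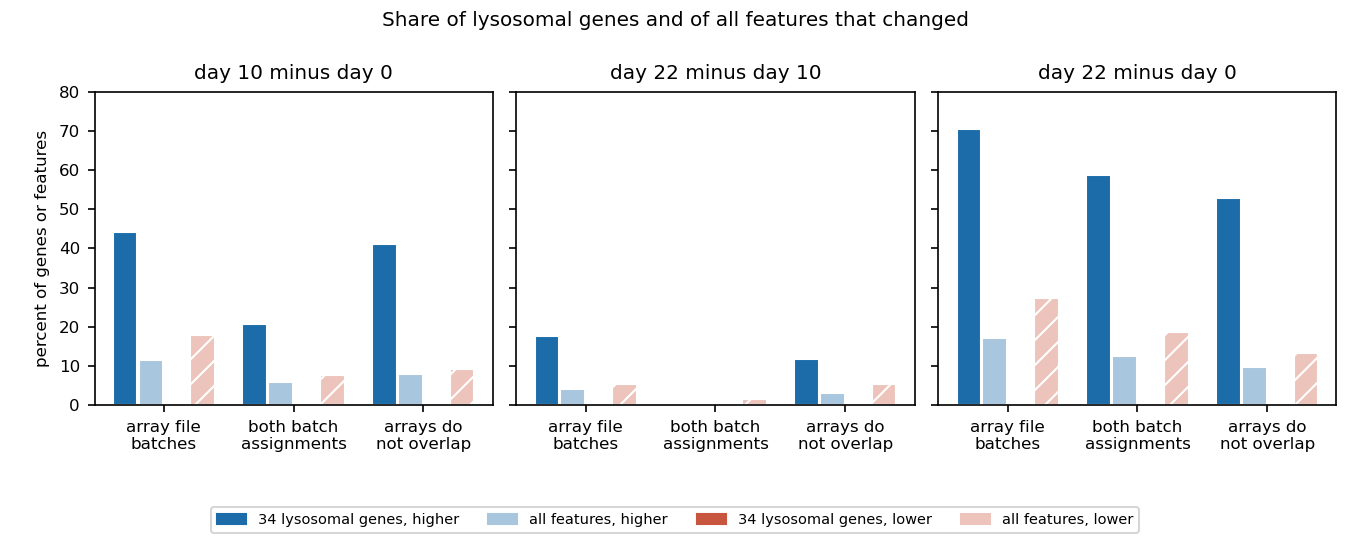
Share of the 34 lysosomal genes and of all 22855 features (y axis, percent) that were higher or lower at the later day under 3 rules: adjusted p under 0.05 with the array-file batches, the same with both assignments, and 6 arrays of each day that do not overlap. The bars for the 34 genes lower are at 0 in every panel, and 58.8% were higher at day 22 than at day 0 with both assignments, against 12.6% of all features.

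The CLEAR element was looked for because Tfeb and its relatives bind it, and because many of the 34 genes moved the same way. Promoters are those of RefSeq on build GRCm38.p6, from 250 bases before to 50 bases after the start of transcription, and 29 of the 34 genes matched one. Those with no entry are Atp6v0d2, Atp6v1h, Asah1, Ctsb and Ctsh. The 8 bases TCACGTGA, which read the same on both strands, stood in the promoters of 6 of these 29 genes, or 20.69%, against 1.12% of 27025 genes with a promoter. The shorter palindrome CACGTG, the E-box that every TCACGTGA contains, stood in 13 of 29, or 44.83%, against 8.09%. The element is known from lysosomal genes, and the 34 were listed as such, so both excesses over all genes were to be expected. They say nothing about change between the days. Among the genes that rose at day 22 against day 0, 3 of 15 with a promoter held TCACGTGA (20.0%), and among the others 3 of 14 (21.43%). A match describes these letters and does not show that a factor bound them. The lines below give 40 bases around each TCACGTGA, 5′ to 3′ on the strand of the gene, with that match in capitals.
Ctsd, chr7:142387903-142387942, minus strand: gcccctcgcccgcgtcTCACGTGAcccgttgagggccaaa
Ctsa, upstream match, chr2:164833744-164833783, plus strand: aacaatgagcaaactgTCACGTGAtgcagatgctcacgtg
Ctsa, downstream match, chr2:164833761-164833800, plus strand: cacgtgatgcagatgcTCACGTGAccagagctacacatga
Atp6v1a, chr16:44139368-44139407, minus strand: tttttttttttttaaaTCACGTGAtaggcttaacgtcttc
Gla, upstream match, chrX:134601210-134601249, minus strand: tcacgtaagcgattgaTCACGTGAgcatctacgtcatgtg
Gla, downstream match, chrX:134601177-134601216, minus strand: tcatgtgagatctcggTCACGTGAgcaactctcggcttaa
Atp6v0d1, chr8:105566045-105566084, minus strand: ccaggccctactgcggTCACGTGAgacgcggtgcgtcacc
Mcoln1, chr8:3500457-3500496, plus strand: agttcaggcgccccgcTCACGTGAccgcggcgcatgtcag
The first 3 genes rose at day 22 and the last 3 did not pass. The match in Ctsd began 99 bases before the start of transcription, and that of Atp6v0d1 began 4 bases before it. Ctsa held matches on both sides of its start, and its lines overlap. Lamp1 held no TCACGTGA but 4 copies of CACGTG within 61 bases of its start, shown here in capitals.
Lamp1, chr8:13159081-13159160, plus strand: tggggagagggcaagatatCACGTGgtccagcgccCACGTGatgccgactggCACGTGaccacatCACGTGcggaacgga

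Cathepsins are the proteases of the lysosome. Of the 11 proteases listed, 8 rose at day 22 against day 0, and the median difference over the 11 was 1.03. Cathepsin H, an aminopeptidase of the cysteine class encoded by Ctsh, had lowest, median and highest array levels of 0.85, 2.13 and 2.88 at day 0, of 3.02, 3.34 and 4.06 at day 10 and of 3.36, 4.21 and 5.03 at day 22. All arrays of day 22 and all arrays of day 10 lay above every array of day 0, while those of day 22 and day 10 overlapped. Its difference was 2.18 ± 0.28, or 4.52-fold, between day 22 and day 0 (limma, adjusted p = 0.000552, and 0.00595 with the value-table batches). At day 10 it was 1.33 ± 0.28, which passed only with the array-file batches (limma, adjusted p = 0.0103 and 0.0672).

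Cathepsin K, the collagen-cleaving protease for which osteoclasts are known, had the widest range of the 34 over the day 22 arrays. Ctsk levels were 1.11, 1.95 and 3.02 at day 0, 2.45, 2.99 and 3.80 at day 10 and 2.32, 4.0 and 5.43 at day 22, in the same order of lowest, median and highest. The days overlapped, and the day 22 arrays spanned 3.11, from 1 array inside the range of day 0 to 3 above every array of both other days. Its difference between day 22 and day 0 was 1.99 ± 0.46, or 3.96-fold (limma, adjusted p = 0.00832 and 0.0208 with the value table). On the arrays of slide 2 alone it was 1.81 ± 0.78 and did not pass (adjusted p = 0.148). The difference of 0.99 ± 0.46 at day 10 did not pass with either assignment (limma, adjusted p = 0.142 and 0.228).

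Cathepsin D, the main aspartyl protease of the lysosome, had the smallest adjusted p of the 34 with the array-file batches. Ctsd levels were 5.96, 6.24 and 6.46 at day 0, 7.03, 7.05 and 7.16 at day 10, and 7.38, 7.65 and 8.07 at day 22. The 3 days formed 3 separate bands with no overlap. Against day 0 the difference was 1.47 ± 0.09 at day 22, or 2.77-fold (limma, adjusted p = 2.13e-05 and 0.00038), and 0.84 ± 0.09 at day 10, or 1.79-fold (adjusted p = 0.000791 and 0.0128). Between day 22 and day 10 it was 0.63 ± 0.09, which passed only with the array-file batches (limma, adjusted p = 0.0071 and 0.0802). Its promoter is the first printed above. A second Ctsd probe gave 1.66 ± 0.14 for day 22 against day 0.

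Cathepsin B, a cysteine protease of broad specificity, had the same 3 bands. Ctsb levels were 5.99, 6.06 and 6.25 at day 0, 6.62, 6.76 and 6.84 at day 10 and 7.06, 7.28 and 7.72 at day 22. The difference was 0.66 ± 0.09 at day 10 (limma, adjusted p = 0.00183 and 0.0198) and 1.28 ± 0.09 at day 22 (adjusted p = 3.5e-05 and 0.000459), both against day 0. Cathepsin Z, a carboxypeptidase, had Ctsz levels of 3.64, 3.85 and 4.07 at day 0, 4.59, 4.72 and 4.85 at day 10 and 4.76, 5.09 and 5.70 at day 22. Both later days lay above day 0 and overlapped each other. Its differences from day 0 were 0.86 ± 0.13 at day 10 (limma, adjusted p = 0.00289 and 0.0243) and 1.33 ± 0.13 at day 22 (adjusted p = 0.00015 and 0.00165).

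The other proteases that rose at day 22 were Lgmn, by 1.03 ± 0.13, Ctsl, by 0.97 ± 0.08, and Ctsa, by 0.62 ± 0.11. Lgmn encodes legumain, which cuts after asparagine and processes other cathepsins, Ctsl the endopeptidase cathepsin L, and Ctsa a carboxypeptidase that also shields the sialidase Neu1 from degradation. The arrays of day 22 lay above those of day 0 in all 3. Ctsl had also risen at day 10, by 0.56 ± 0.08, with an adjusted p of 0.0469 with the value table (limma). For Ctsa a second probe gave a difference of 0.35 ± 0.10 at day 22 against day 0. Ctsf, another cysteine cathepsin, had a difference of 0.62 ± 0.11 that stood at the threshold with the value table (limma, adjusted p = 0.00303 and 0.05). The remaining proteases did not pass in any of the 3 comparisons: cathepsin C, a dipeptidyl peptidase that activates serine proteases of immune granules, had a difference of -0.11 ± 0.11 between day 22 and day 0, and Tpp1, the tripeptidyl peptidase lost in a childhood neuronal storage disease, of 0.12 ± 0.12.

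**Figure D3:**
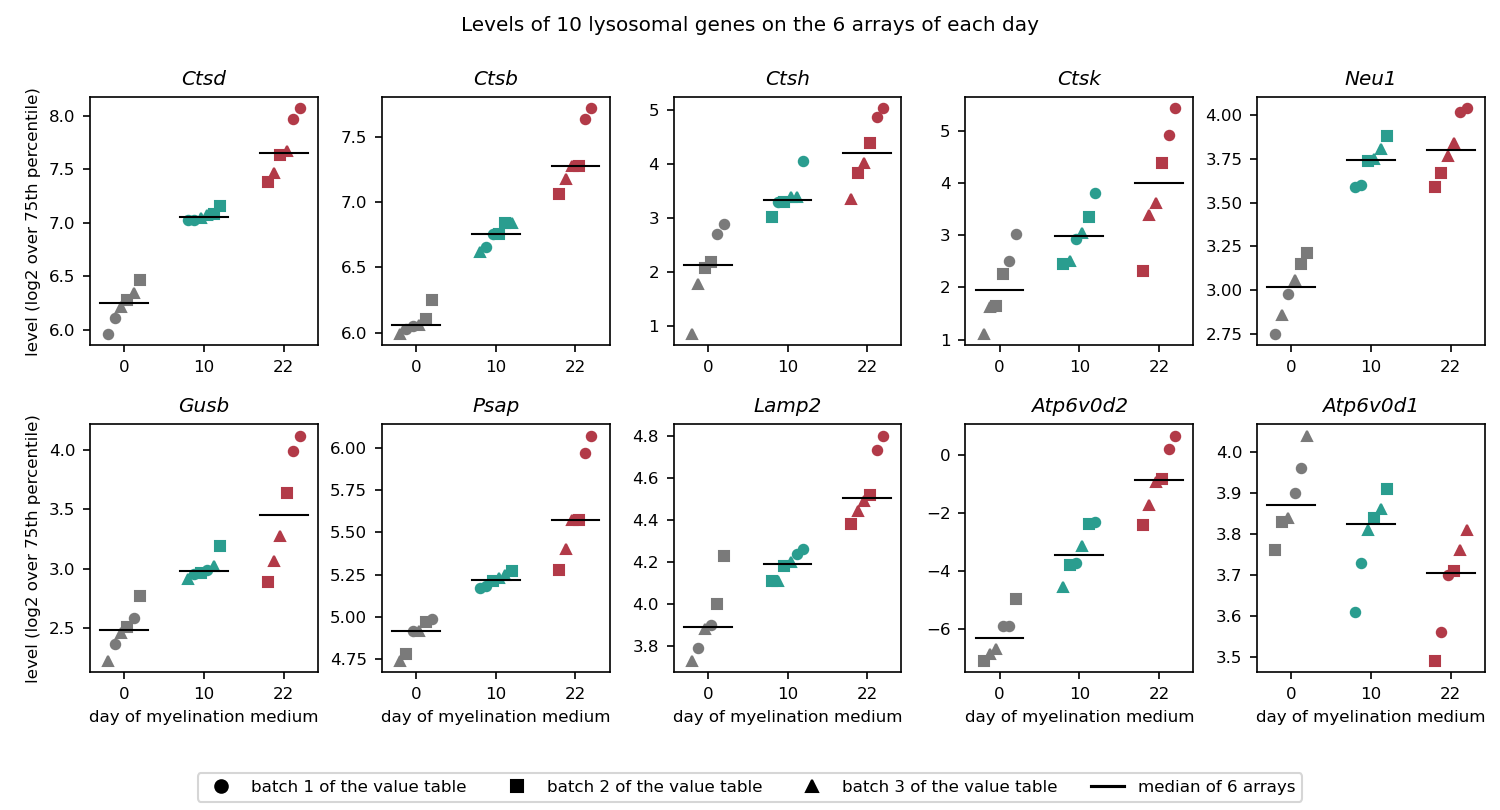
Levels of 10 lysosomal genes (y axis, log2 over the array's 75th percentile) on the 6 arrays of day 0, day 10 and day 22 (x axis), sorted within a day, with lines at the medians and symbols for the value-table batches. Ctsd and Ctsb form 3 separate bands, Neu1 levels of day 10 and day 22 overlap above day 0, and Atp6v0d1 has medians of 3.87, 3.83 and 3.71. In Ctsd, Ctsb, Ctsh, Ctsk, Neu1, Gusb, Psap, Lamp2 and Atp6v0d2 the highest arrays of day 22 are those of batch 1 of the value table.

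Among glycosidases and sulfatases, which strip sugars and sulfate groups from glycans and glycolipids, 6 of 9 rose at day 22 against day 0, with a median over the 9 of 0.57. Gusb encodes beta-glucuronidase, which acts on glycosaminoglycans. Its levels were 2.22, 2.48 and 2.77 at day 0, 2.91, 2.97 and 3.19 at day 10 and 2.89, 3.46 and 4.12 at day 22. Both later days lay above day 0, and the lowest array of day 22 lay below every array of day 10. The difference was 1.01 ± 0.19, or 2.02-fold, between day 22 and day 0 (limma, adjusted p = 0.00308 and 0.0098), and on slide 2 alone it was 0.90 ± 0.30 (adjusted p = 0.0742).

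Hexa, the alpha subunit of beta-hexosaminidase, whose loss stores a ganglioside in Tay-Sachs disease, had levels of 3.68, 3.80 and 3.98 at day 0, 4.01, 4.13 and 4.35 at day 10 and 4.11, 4.59 and 5.27 at day 22. Both later days lay above day 0, and the arrays of day 22 reached furthest. It rose by 0.85 ± 0.14 at day 22 (limma, adjusted p = 0.00152 and 0.0134). Its difference of 0.34 ± 0.14 at day 10 did not pass (limma, adjusted p = 0.0985 and 0.274).

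Neu1 and Arsa had risen at day 10 and differed little between day 22 and day 10. Neu1, the lysosomal sialidase, had levels of 2.75, 3.02 and 3.21 at day 0, 3.59, 3.74 and 3.88 at day 10 and 3.59, 3.81 and 4.04 at day 22, so the later days shared a range that lay above day 0. Its differences from day 0 were 0.73 ± 0.09 at day 10 (limma, adjusted p = 0.00136 and 0.0134) and 0.82 ± 0.09 at day 22 (adjusted p = 0.000264 and 0.00294), and between day 22 and day 10 it was 0.09 ± 0.09 (adjusted p = 0.57 and 0.762). Arsa encodes arylsulfatase A, which breaks down the myelin lipid sulfatide. Its levels were 3.02, 3.18 and 3.36 at day 0, 3.43, 3.68 and 3.91 at day 10 and 3.37, 3.75 and 3.83 at day 22, again with both later days above day 0. Its differences from day 0 were 0.50 ± 0.08 at day 10 (limma, adjusted p = 0.00332 and 0.0494) and 0.48 ± 0.08 at day 22 (adjusted p = 0.00175 and 0.0298), and between day 22 and day 10 it was -0.01 ± 0.08. With the value-table batches as a replicate block, Arsa no longer passed at day 10 (limma, adjusted p = 0.0777) or at day 22 (0.0552).

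Gaa, the acid alpha-glucosidase that digests glycogen, rose at day 22 by 0.72 ± 0.11, and Galc, the galactosylceramidase that breaks down the main galactolipid of myelin, by 0.57 ± 0.12. The arrays of day 22 lay above those of day 0 for Gaa, and overlapped them for Galc, whose levels ran between -1.86 and -1.42 at day 22, against -2.63 and -1.83 at day 0. A second Gaa probe gave 0.70 ± 0.11. Arsb, Gla and Glb1 did not pass in any comparison, with differences of 0.23 ± 0.14, -0.06 ± 0.13 and -0.04 ± 0.09 between day 22 and day 0. Arsb removes sulfate from dermatan sulfate, Gla digests the glycolipid stored in Fabry disease, and Glb1 is the lysosomal beta-galactosidase. The Gla promoter holds a pair of the TCACGTGA matches printed above, although its levels of 7.11 to 7.65 at day 22 covered those of 7.14 to 7.64 at day 0.

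In the lipid group, 2 of 4 genes rose at day 22. Psap encodes prosaposin, the precursor of the small saposins that present sphingolipids to their hydrolases. Its levels were 4.74, 4.92 and 4.99 at day 0, 5.17, 5.22 and 5.27 at day 10 and 5.28, 5.57 and 6.07 at day 22, and the 3 days did not overlap. It rose by 0.76 ± 0.10, or 1.69-fold, at day 22 against day 0 (limma, adjusted p = 0.000617 and 0.00732), while the steps of 0.33 ± 0.10 at day 10 against day 0 and of 0.42 ± 0.10 at day 22 against day 10 passed only with the array-file batches, and neither passed with these batches as a replicate block (adjusted p = 0.0586 for day 10 against day 0 and 0.0545 for day 22 against day 10, both limma). Asah1, the acid ceramidase, had levels of 2.69, 3.01 and 3.49 at day 0, 3.11, 3.23 and 3.59 at day 10 and 3.42, 3.53 and 3.73 at day 22. The highest array of day 0 lay inside the range of day 22. Its difference was 0.52 ± 0.09 (limma, adjusted p = 0.00228 and 0.0148), and on slide 1 alone it was 0.35 ± 0.23 and did not pass (adjusted p = 0.308).

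Lipa and Ppt1 passed for day 22 against day 0 only with the array-file batches. Lipa encodes the lysosomal acid lipase that frees cholesterol from its esters. Its levels were 1.70, 1.94 and 2.15 at day 0, 1.73, 1.80 and 2.28 at day 10 and 2.00, 2.51 and 3.33 at day 22. The day 22 arrays spanned 1.33, and the lower ones lay inside the range of day 0. The difference was 0.62 ± 0.20 (limma, adjusted p = 0.0356 and 0.0838). Ppt1, the thioesterase that takes fatty acids off proteins, had a difference of 0.39 ± 0.12 (limma, adjusted p = 0.0307 and 0.0697).

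Of the membrane proteins only Lamp2 rose, at day 22 against day 0. Lamp1 and Lamp2 are the abundant glycoproteins that coat the inside of the lysosomal membrane, and Lamp2 is also needed for autophagosomes to fuse and for proteins to be taken in directly. Lamp2 levels were 3.73, 3.89 and 4.23 at day 0, 4.11, 4.19 and 4.26 at day 10 and 4.38, 4.51 and 4.80 at day 22. The day 22 arrays lay above all others, and 1 array of day 0 reached into day 10. The difference was 0.64 ± 0.09, or 1.56-fold (limma, adjusted p = 0.00102 and 0.00609), and a second probe gave 0.67 ± 0.09. Lamp1, with the E-boxes printed above, had a difference of 0.28 ± 0.08 that passed only with the array-file batches (limma, adjusted p = 0.0224 and 0.0721). Scarb2, which carries glucocerebrosidase to the lysosome, differed by 0.03 ± 0.09, and Mcoln1, a calcium channel of the lysosomal membrane, by 0.18 ± 0.07. Neither passed at day 22 (limma, adjusted p = 0.829 and 0.846 for Scarb2, 0.0736 and 0.172 for Mcoln1).

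Tfeb, the transcription factor that switches lysosomal genes on once it is dephosphorylated and enters the nucleus, had levels of -0.71, -0.54 and -0.25 at day 0, -0.39, -0.33 and -0.14 at day 10 and -0.52, -0.38 and -0.31 at day 22. The 3 days overlapped. Its difference at day 22 against day 0 was 0.12 ± 0.07 (limma, adjusted p = 0.203 and 0.398), and at day 10 against day 0 it was 0.22 ± 0.07, which passed only with the array-file batches (adjusted p = 0.0484 and 0.184) and not with these as a replicate block (0.0578). Messenger levels do not report where the protein was.

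Between day 22 and day 0 the proton pump gave both the widest difference of the 34 and the lowest. Atp6v0d2 encodes the d2 isoform of a subunit in the membrane sector of the vacuolar ATPase, known from osteoclasts, macrophages and kidney, and Atp6v0d1 encodes the d1 isoform used by most cells. Atp6v0d2 levels were -7.12, -6.31 and -4.97 at day 0, -4.55, -3.45 and -2.33 at day 10 and -2.42, -0.88 and 0.67 at day 22. It was well above background on 1 of 6 arrays of day 0 and on all arrays of both later days, and day 0 lay apart from them. The measured difference was 5.41 ± 0.37 between day 22 and day 0 (limma, adjusted p = 2.85e-05 and 0.000328) and 2.92 ± 0.37 between day 10 and day 0 (adjusted p = 0.00133 and 0.0131). With each dim array of day 0 set to the lowest signal well above background, the level was at least 24.5-fold higher at day 22 and at least 4.36-fold higher at day 10 than at day 0. These bounds hold for the scaling used here. With normexp background correction and quantile normalization the differences were 2.52 ± 0.28 at day 22, which passed (limma, adjusted p = 0.000159), and 0.83 ± 0.28 at day 10, which did not (adjusted p = 0.0527). The day 10 call was kept in 21 of 24 alternatives, the other exceptions being technical array 1 only (limma, adjusted p = 0.228) and slide 2 alone (0.061), and the day 22 call in all 24. A second probe gave measured differences of 4.32 ± 0.43 at day 22 and 1.53 ± 0.43 at day 10. Between day 22 and day 10 the difference was 2.49 ± 0.37, which passed with the array-file batches and, with those of the value table, only as a replicate block (limma, adjusted p = 0.00742 and 0.0579, and 0.0353 with the block).

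Atp6v0d1 levels were 3.76, 3.87 and 4.04 at day 0, 3.61, 3.83 and 3.91 at day 10 and 3.49, 3.71 and 3.81 at day 22, with overlap between all days. The difference between day 22 and day 0 was -0.22 ± 0.08 and did not pass (limma, adjusted p = 0.0561 and 0.115), although it did with quantile normalization (-0.23, adjusted p = 0.0453). Atp6v1a, the catalytic subunit that hydrolyses ATP, had levels of 3.62, 3.76 and 4.03 at day 0, 3.98, 4.09 and 4.28 at day 10 and 4.13, 4.30 and 4.71 at day 22. Day 22 lay above day 0, and it rose by 0.55 ± 0.12 (limma, adjusted p = 0.00633 and 0.00836). Atp6v1h, the subunit that couples and regulates the soluble and membrane sectors, had levels of 0.87, 1.1 and 1.27 at day 0, 1.0, 1.42 and 1.48 at day 10 and 1.41, 1.58 and 1.69 at day 22, and rose by 0.47 ± 0.09 at day 22, again with no overlap with day 0 (limma, adjusted p = 0.00396 and 0.00515). Atp6ap1, an accessory protein of pump assembly, differed by 0.20 ± 0.07 and did not pass (limma, adjusted p = 0.0537 and 0.0881).

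Other lysosomal genes were read from lists chosen with earlier results of these data known. For each of these lists the shares of all features at day 22 against day 0 are 12.6% that rose and 18.6% that fell. Of 29 other genes tested, mostly of hydrolases, 12 rose and 0 fell in that comparison with both assignments. Npc2, Gm2a and Grn in this list do not encode hydrolases. Among them were Ctss, a cathepsin of antigen-presenting cells (3.92 ± 0.48), and Acp5, the tartrate-resistant acid phosphatase of osteoclasts (3.79 ± 0.47). Of 18 other membrane proteins, 6 rose, among them Laptm5 of blood cells (3.02 ± 0.36), Hgsnat (1.52 ± 0.21) and Cln3 (0.90 ± 0.07), and 1, Laptm4b, fell (-0.55 ± 0.09). The median differences were 0.45 over the list of mostly hydrolases and 0.24 over the membrane proteins.

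Of 18 other pump subunits tested, 9 rose and 2 fell at day 22 against day 0, against 12.6 and 18.6% of all features. Their median difference was 0.22. The a4 isoform Atp6v0a4 was at least 4.04-fold higher, being well above background on all arrays of day 22 and 0 of day 0. It passed the filter only through day 22, where it was high, so its direction is no support. Tcirg1, the a3 isoform that osteoclasts use, rose by 0.84 ± 0.16. The subunits that fell were Atp6v1g2 (-0.81 ± 0.20) and Atp6v0e2 (-0.49 ± 0.17), both isoforms enriched in brain, while their widely expressed counterparts Atp6v1g1 (0.28 ± 0.08) and Atp6v0e (0.54 ± 0.07) rose. The summed linear level of the 10 neuron markers ran between 281 and 520 at day 22, against 299 and 526 at day 0. The part of neurons in the result was not tested.

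Of 17 genes that deliver enzymes to lysosomes, 2 rose and 2 fell at day 22 against day 0, against 12.6 and 18.6% of all features. Neither count exceeds those shares, and the median difference was 0.04. M6pr, a mannose 6-phosphate receptor that sorts hydrolases, rose by 0.55 ± 0.07, while Sort1, an alternative sorting receptor, and Gnptab, which makes the mannose 6-phosphate tag, fell (-0.65 ± 0.12 and -0.56 ± 0.09). The other gene that rose, Nagpa, uncovers that tag (0.37 ± 0.09). Of 14 MiT/TFE factors and nutrient-sensing genes 3 rose and 0 fell at day 22, against 12.6 and 18.6% of all features. Tfec was at least 6.25-fold higher, Mitf rose by 1.80 ± 0.12, and Lamtor5, a part of the lysosomal scaffold of nutrient sensing, by 0.28 ± 0.07. Tfec was well above background on 0, 5 and 6 arrays of days 0, 10 and 22. It passed the filter only through day 22, where it was high, so its place in the count is no support. Mitf had also risen at day 10, by 1.69 ± 0.12. Of 7 melanocyte markers 3 were tested, and 1 of them, Tyrp1, had risen at day 10 (4.45 ± 0.39) and at day 22 (3.91 ± 0.39). Pmel differed by 1.1 ± 0.25 at day 10, which passed only with the array-file batches (limma, adjusted p = 0.013 and 0.0781), and by -0.22 ± 0.25 at day 22. Tyr differed by -0.04 ± 0.10 and -0.18 ± 0.10. Dct, Mlana, Slc45a2 and Oca2 have probes but were not well above background on all 6 arrays of any day, so they were not tested. Dct was well above background on 5, 0 and 0 arrays of days 0, 10 and 22, and Mlana on 4, 0 and 2. Slc45a2 and Oca2 were so on 0 arrays of each day. Summed over the 3 markers tested, the linear level ran between 2.5 and 4.33 at day 0, between 50.6 and 81.7 at day 10 and between 8.89 and 80.4 at day 22. Their part in the result was not tested. In the autophagy list 5 of 14 rose and 1 fell at day 22, against 12.6 and 18.6% of all features. Gabarapl1 (0.47 ± 0.10) and Sqstm1 (0.46 ± 0.09) rose the most, and Wipi1 fell (-0.81 ± 0.09).

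Most macrophage markers rose at day 22 against day 0. Of 15 tested of 16 listed, 13 rose and 0 fell, against 12.6 and 18.6% of all features. Lyz2 (5.15 ± 0.38), Mpeg1 (3.77 ± 0.44) and Cd14 (3.45 ± 0.35) rose the most. Cx3cr1 (1.51 ± 0.58) and Itgam (-0.67 ± 0.29) did not pass, and Cd68 had no matched probe. At day 10 against day 0, 1 marker rose, against 5.75% of all features. With the array-file batches alone 10 were higher at day 10, against 11.4%. The summed linear level of the 15, in units of the 75th percentile, ran between 66.2 and 95.5 on the arrays of day 0, between 105 and 168 at day 10 and between 140 and 492 at day 22. Of the 15, 13 were well above background on every array, and Fcgr1 and Ptprc were so on 5 of 6 arrays of day 0. A second list, of genes known from osteoclasts and lipid-laden macrophages, had 11 members, of which 8 were tested. At day 10 against day 0, 4 of the 8 were higher and 0 lower, against 5.75 and 7.72% of all features. At day 22 against day 0, 5 were higher and 1 lower, against 12.6 and 18.6% of all features. Itgax was at least 30.7-fold higher at day 22, Gpnmb rose by 5.18 ± 0.38 and Spp1 by 4.44 ± 0.37, while Itgb3, an integrin of osteoclasts, fell (-1.48 ± 0.17). Itgax was well above background on 0, 5 and 6 arrays of days 0, 10 and 22. It passed the filter only through day 22, where it was high, so its place in these counts is no support. Of the osteoclast genes in the list, Nfatc1, a transcription factor (0.10 ± 0.12), and Ocstamp, a protein of cell fusion (0.02 ± 0.10), did not pass. Dcstamp, Calcr and Mmp9 have probes but were not well above background on all 6 arrays of any day, so they were not tested. Dcstamp was well above background on 1, 4 and 5 arrays of days 0, 10 and 22, and Mmp9 on 2, 5 and 5. Calcr was so on 0 arrays of each day. Summed over the 8, the level ran between 158 and 305 at day 22, against 21.7 and 30.3 at day 0. The part of these cells in the lysosomal result was not tested.

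Within day 22 the arrays differed in step across many of the 34 genes. Over the 6 arrays of a day the median range of the 34 was 0.45 at day 0, 0.30 at day 10 and 0.67 at day 22, where that of all features was 0.59, 0.40 and 0.56. A single array of day 22 held the highest level of 17 of the 34 genes, against 18.2% of all features, and another the highest of 11, against 11.7% of all features. Those arrays are batch 1 of the value table and lie on different slides. They were the highest pair of the 6 in 25 of the 34 genes, and in 17 of the 20 that rose. They also held the highest mean levels of the 15 macrophage markers, 4.14 and 3.90. The same was true of the 8 fibroblast markers (5.53 and 5.41) and the 4 endothelial markers (0.40 and 0.16). The array with the macrophage mean of 4.14 had the lowest means of the Schwann cell markers, 3.46, and the neuron markers, 3.85. It held the lowest level of 33.7% of all features. The array with the lowest mean of the macrophage markers at day 22, 1.92, held the lowest level of 20 of the 34 genes, against 10.5% of all features.

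Without batch 1 of the value table at day 22, 19 of the 34 genes passed as higher at day 22 than at day 0 with the value-table batches, and 0 as lower, against 12.6 and 14.3% of all features. With all its batches 20 were higher and 0 lower, against 13 and 19.2%. All 19 were among the 20, and the lost call was Arsa (0.40 ± 0.15, limma, adjusted p = 0.0824). Ctsd differed by 1.31 ± 0.11, Ctsk by 1.40 ± 0.38 and Gusb by 0.73 ± 0.11 in that fit, and Atp6v0d2, dim at day 0, passed as well (limma, adjusted p = 0.000222). Lipa moved to 0.31 ± 0.13, under the 0.62 with all arrays. The macrophage markers on the remaining 4 arrays of day 22 still averaged between 1.92 and 3.6, above every array of day 0, which ran between -0.90 and 0.85. Leaving out that batch was chosen after the values were seen.

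**Figure D4:**
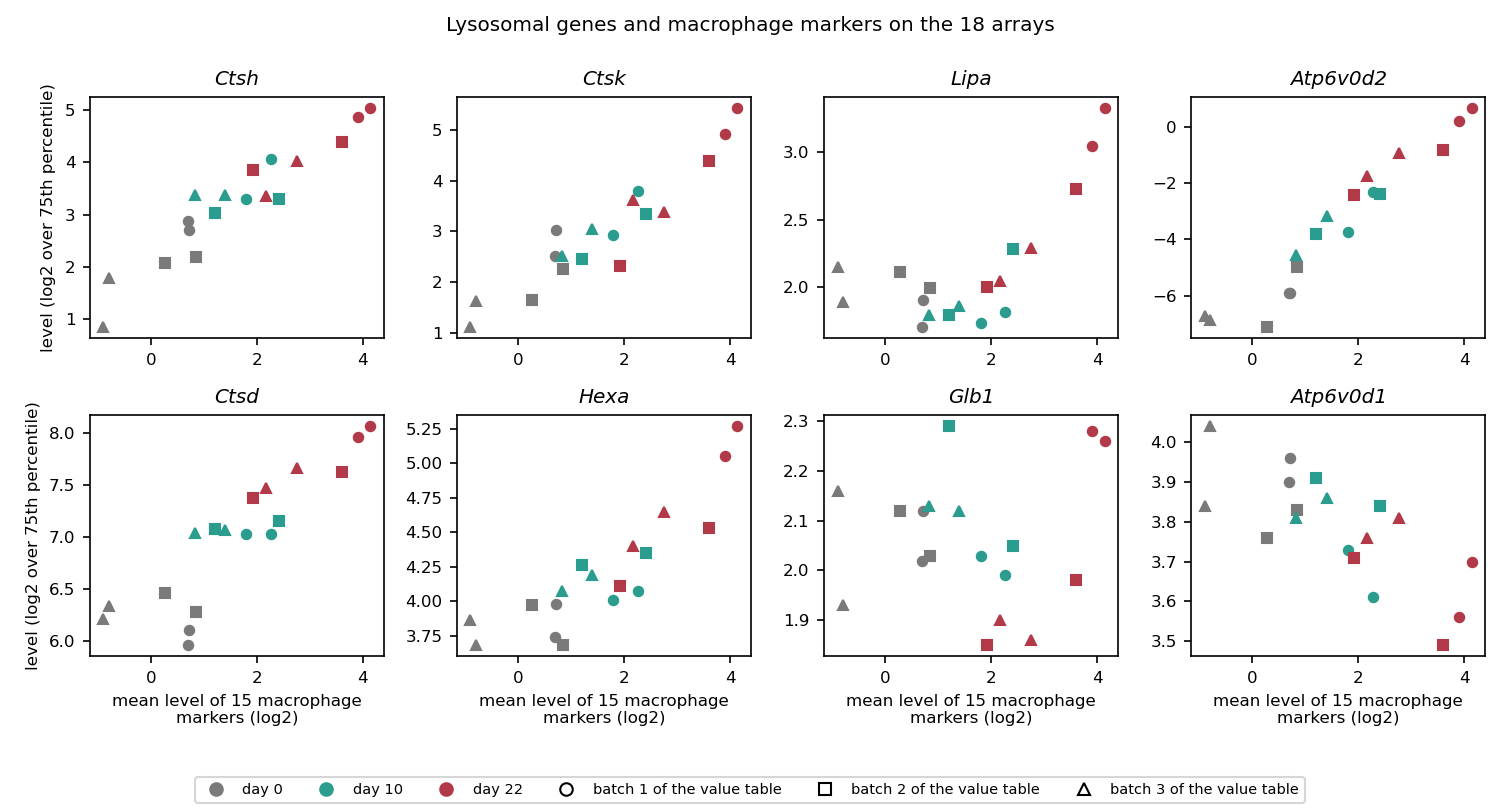
Levels of 8 lysosomal genes (y axis, log2 intensity relative to the 75th percentile) against the mean level of 15 macrophage markers (x axis, the same scale) on the 18 arrays, with colours for days and symbols for the batches of the value table. The points share arrays, batches and scaling, so the panels are a description. Ctsh, Ctsk, Ctsd, Hexa and Atp6v0d2 have their highest levels on the day 22 arrays with means of 4.14 and 3.90, the 3 highest levels of Lipa are on the day 22 arrays with the 3 highest means, and the lowest level of Atp6v0d1, 3.49, is on an array of day 22.

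Values were also taken within single slides. Days 0, 10 and 22 all had arrays on slide 1 and on slide 2. With arrays as samples, slide 1 gave 18 and slide 2 gave 11 of the 34 genes higher at day 22 than at day 0, against 8.7 and 8.36% of all features, and 0 lower on either, against 11.1 and 11.5%. At day 10 against day 0 slide 1 gave 5 and slide 2 gave 2 higher, against 2.76 and 2.49% of all features, and 0 lower on either, against 2.27 and 2.86%. Ctsd differed by 1.54 ± 0.17 on slide 1 and 1.52 ± 0.19 on slide 2, and Ctsb by 1.39 ± 0.14 and 1.31 ± 0.19. By the assignment of the array files some arrays of a day on a slide share a batch and are not independent samples, while by that of the value table they are all from different batches.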

How the data were processed

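Total RNA of 18 samples was hybridised to 1-colour Cy3 Agilent arrays, 1 sample per array. The authors extracted spot intensity with Agilent Feature Extraction, version 10.7.1.1 per the file headers and 10.7.1 per the submitters' processing notes. That software subtracts background and spatial trends, and the array design names build mm9, both per the file headers. They also deposited a value table of linear intensity, whose 18 columns share 1 distribution, with a median of 33.7. The sources used here do not say how it was made. Flags of 0 and 1 per spot were made by Feature Extraction too, per the file headers. By rank correlation with its columns, 6 of 18 array files stood under their own sample and 12 under another sample of the same day.

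Levels are log2 processed intensity less that of each array's 75th percentile (584 to 747), over 59305 spots that were not controls. Outlier spots (93 to 181 per array) were left out, 0 were saturated, and spots of a probe were averaged. Of 55681 probes, 30432 were kept, those above background by the flag on the 6 arrays of some day. The files hold accessions, which named 26582 probes with 20145 symbols of a RefSeq table, and the brightest probe stood for a gene, which left 22855 features (14543 with a symbol). Of the 34 genes, 33 were well above background on all 18 arrays and Atp6v0d2 on 13. The 9 genes with 2 probes had the same sign in both in every comparison. limma 3.58.1 (lmFit and eBayes, in R 4.3.3 with version 1.17.8 of the package data.table) was fitted to the 9 batch means, with Benjamini-Hochberg adjustment over all features and a threshold of 0.05. The self-test on simulated data was run before the fit was used. It recovered 37.3 to 47.8% of 1.5-fold changes, 67.2 to 73.1% of 2-fold changes and 90.9 to 100% of 4-fold changes. A gene that did not pass may therefore still have changed.

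The members and lists were chosen with earlier results of these data known. In each role and pair of days, up to 3 genes past the threshold both ways with the largest differences were described in full, and up to 3 were named in each other list, except genes that are not reported here. Atp6v0e2, Atp6v1g1, Nagpa, Itgb3, Nfatc1, Ocstamp, Pmel, Tyr, Cx3cr1 and Itgam were named after their values were seen. A bound sets each dim array to the lowest signal flagged as well above background, or to its own signal where that is higher. The numbers of the batches are shared across days in the labels, and deviations of same-numbered batches correlated at -0.13 to 0.37 (6 of 9 above 0.1) in the array files and at -0.08 to 0.46 (8 of 9) in the value table. The files have no mean signal, so normexp with an offset of 50, an alternative, used the median signal.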

Additional observations from a re-analysis of the deposited data

Results flagged for a closer look

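Single arrays stood apart from the other 5 of their day in 2 of the 102 sets of gene and day tested with Dixon's criterion at 95%, which chance alone flags in about 1 of 20 sets. At day 10 the highest of 6 Ctsh levels was 4.06, where the nearest was 3.38. At day 10 the highest of 6 Lipa levels was 2.28, where the nearest was 1.86. These are different arrays on different slides, in batches 1 and 2 of the value table.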

How the results depend on the processing

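The reported counts of genes higher are 15 at day 10 against day 0, 6 at day 22 against day 10 and 24 at day 22 against day 0, with 0 lower in each, with the array-file batches. The replicate block gave 14, 6 and 24. It ended the calls of Ctsa, Psap and Tfeb at day 10 against day 0 and of Psap and Lamp2 at day 22 against day 10, and raised Gusb and Atp6v1a in the first of these comparisons and Ctsh and Hexa in the other past the threshold. At day 10 against day 0 the count was 7 with the value-table batches, 7 with these as a replicate block and 7 with the authors' values, 1 and 9 with technical array 1 or 2 only, 5 and 2 on slide 1 or 2 alone, 20 with slide as a block, 12 with slide as a block and the value-table batches, and 14 with the value-table batches and day 22 batch 1 left out. With slide as a block 1 gene was lower, Scarb2. At day 22 against day 10 it was 0 with the value-table batches, the authors' values, either technical array or either slide, 1 with the value table as a replicate block, 14 with slide as a block, 2 with slide as a block and the value-table batches, and 1 without batch 1 of the value table at day 22. Both settings that join the value-table batches with slide or leave out its batch 1 of day 22 were chosen after seeing the data. At day 22 against day 0 it was 14 with technical array 1 only and 11 on slide 2 alone, settings with fewer arrays. Atp6v0d1 was the 1 gene lower there with quantile normalization, normexp and quantile normalization, slide as a block, or without day 22 batch 3. Leaving out a batch gave 11 to 18, 3 to 13 and 21 to 24 genes higher, and 0 to 1 lower at day 22 against day 0. Over the 24 alternatives, 837 of 1080 values past the threshold kept it and 0 changed sign. The cause was not tested for the other changes. The 75th percentile scaling left the median of all features at -0.06, -0.02 and -0.08. Dim signal limits Atp6v0d2 at day 0, and 3 batches per day, whose arrays are assigned in conflicting ways, limit the steps between neighbouring days.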

Other observations

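Of 8 fibroblast markers, Lum rose at day 22 against day 0 (2.72 ± 0.34), while Col3a1 (-1.02 ± 0.14), Postn (-0.73 ± 0.15) and Col1a1 (-0.65 ± 0.09) fell. Of 4 endothelial markers tested, Pecam1 fell (-0.30 ± 0.08). Of 7 Schwann cell markers, Mpp6 rose (0.92 ± 0.14) and Erbb3 fell (-0.93 ± 0.17). Of all features 12.6% rose and 18.6% fell in the same comparison.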
